A study of Mus musculus with 48 samples.

Results

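Epithelial junction and keratin genes were followed in limb bud ectoderm and mesoderm of mouse embryos after exposure to a teratogen. They were 10 genes, the keratins Krt8, Krt18 and Krt19, the desmosome genes Pkp3 and Dsp, the tight junction genes Cldn7 and Cxadr, the adherens junction gene Cdh1, the adhesion molecule Epcam and the splicing regulator Esrp1. A probe set counted for a gene when it named that symbol alone. This gave 13 of the 12488 probe sets on the array, and 10 of the 8252 genes that remained after probe sets of the same gene were averaged. The genes had been chosen by the log2 ratios of these same arrays, treated against vehicle over both agents, tissues and times, with earlier results known. Their differences between treated and vehicle arrays, and between ectoderm and mesoderm, are therefore a description here and carry no test.

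Pregnant mice had been injected intraperitoneally on gestation day 9.5. One arm received cadmium sulfate at 4 mg/kg in phosphate buffered saline (PBS) or PBS, and the other acetazolamide at 400 mg/kg in vegetable oil or oil. Embryos were taken 3 h or 12 h later, the right forelimb buds were removed, and ectoderm and mesoderm were parted with trypsin. Tissue of several litters was pooled for RNA, although the series text calls the extracts non-pooled, so the 3 arrays of a group are taken as 3 RNA samples whose number of litters is unknown. The 4 injections, 2 tissues and 2 times made 16 groups of 3 arrays, 48 in all. The question of the series is which genes each agent altered, since both agents give a similar limb defect.

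Epithelial sheets are held together by a small set of structures. Desmosomes join the keratin filaments of neighbouring cells, adherens junctions join their actin, and tight junctions seal the space between them. Limb bud ectoderm is such an epithelium and carries the apical ridge that sustains outgrowth, while the mesoderm beneath it is a loose mesenchyme that normally has little of these proteins. Keratins 8 and 18 pair with each other in simple epithelia.

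The deposited values are ratios to the matching vehicle arrays, so no expression level was kept. The labelled tissues could not be checked against their markers, levels could not be compared between genes or tissues, and ectoderm left on a mesoderm sample could not be measured directly. In tissue samples of this kind, fewer cells of a type and less RNA per cell cannot be told apart. On the log2 scale used below, vehicle arrays 1 and 2 lie on either side of 0 and vehicle array 3 is 0 for every gene, because the first 2 were divided by their mean and the third by itself, as the values show. A difference is the log2 value of treated minus vehicle arrays, given with its SE from the limma fit to all 48 arrays (n = 3 arrays in each group). Array medians ran from -0.12 to 0.10.

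The third treated ectoderm arrays shared a pattern that ran in opposite directions for the 2 agents. Over all 8252 genes, the third array of 3 h and of 12 h correlated at 0.586 in the cadmium arm and at 0.714 in the acetazolamide arm. Between the agents, the third ectoderm arrays correlated at -0.779 to -0.515 over 4 pairs, while the other 32 pairs of ectoderm arrays ran from -0.449 to 0.567. On these arrays 63.9% and 63.1% of genes lay above 0 after cadmium (3 h and 12 h), against 36.7% and 36.4% after acetazolamide. The sign of a difference was opposite between arrays 1 and 2 and array 3 in 5, 5, 3 and 4 of the 10 genes, in the order 3 h cadmium, 12 h cadmium, 3 h acetazolamide and 12 h acetazolamide ectoderm. In mesoderm these counts were 1, 4, 6 and 3 in the same order, so such sign changes were not particular to ectoderm. The ectoderm differences of single genes are also given from arrays 1 and 2, that is, without the third arrays. Mesoderm differences are mostly given from all 3 arrays, and some of them change sign without the third.

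The promoters of Krt8, Krt18 and Epcam are shown because Krt8 and Krt18 had the highest correlation of any pair over the treated arrays, and Epcam ran against both in ectoderm, as described below. Each is the 250 bases before the gene's start, written 5′ to 3′ in the direction of the gene, from RefSeq on build GRCm38.p6. Krt8 lies on the minus strand of chromosome 15 (chr15:102004343-102004592 for the bases shown), and Krt18 on the plus strand of the same chromosome (chr15:102027966-102028215). The bodies of these 2 genes are 23873 bases apart. Epcam lies on the plus strand of chromosome 17 (chr17:87635729-87635978). Capitals mark matches, on either strand, to the E-box CACCTG, the GC box GGGCGG and the AP-2 motif GCCNNNGGC. On the strand shown, a match on the other strand reads CAGGTG or CCGCCC.
Krt8: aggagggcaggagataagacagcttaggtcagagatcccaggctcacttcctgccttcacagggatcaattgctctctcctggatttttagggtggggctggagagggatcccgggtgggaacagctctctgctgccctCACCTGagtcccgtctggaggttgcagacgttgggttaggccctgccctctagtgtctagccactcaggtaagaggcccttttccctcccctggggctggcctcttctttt
Krt18: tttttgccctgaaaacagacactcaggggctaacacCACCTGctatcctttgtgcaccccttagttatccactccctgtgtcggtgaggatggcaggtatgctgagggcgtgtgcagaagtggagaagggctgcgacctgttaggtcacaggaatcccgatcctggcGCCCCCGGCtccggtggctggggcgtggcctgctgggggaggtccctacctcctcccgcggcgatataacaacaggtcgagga
Epcam: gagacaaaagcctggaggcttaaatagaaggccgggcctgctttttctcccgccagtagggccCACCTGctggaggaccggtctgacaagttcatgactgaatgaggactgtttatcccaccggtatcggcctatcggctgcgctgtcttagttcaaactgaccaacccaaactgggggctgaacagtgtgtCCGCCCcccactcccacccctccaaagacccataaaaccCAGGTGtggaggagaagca

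The E-box is the letter pattern bound by repressors of the epithelial state such as Snai1 and Zeb1. It occurred once in the Krt8 window, 111 bases before the start, and once in the Krt18 window, 214 bases before it. In the Epcam window it occurred at 187 bases and, on the other strand, at 19 bases before the start. Of 32851 RefSeq promoter windows of the same length, 17.2% held this E-box, 32.7% the GC box and 13.7% the AP-2 motif. The Krt18 window also held the AP-2 motif (83 bases before the start), and the Epcam window a GC box on the other strand (58 bases). None of the 3 windows held the grainyhead motif AACCNGTT, found in 1.79% of windows, or TATAAA, found in 12.4%. A match describes letters only. Of the other genes, the Cldn7 window at the gene's start held no match, a window at a second Cldn7 start (chr11:69965171-69965420) 2 E-boxes and a GC box, and the Dsp window 4 GC boxes and an AP-2 motif. Pkp3, Cxadr, Esrp1, Krt19 and Cdh1 had no window in the table used.

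**Figure D1:**
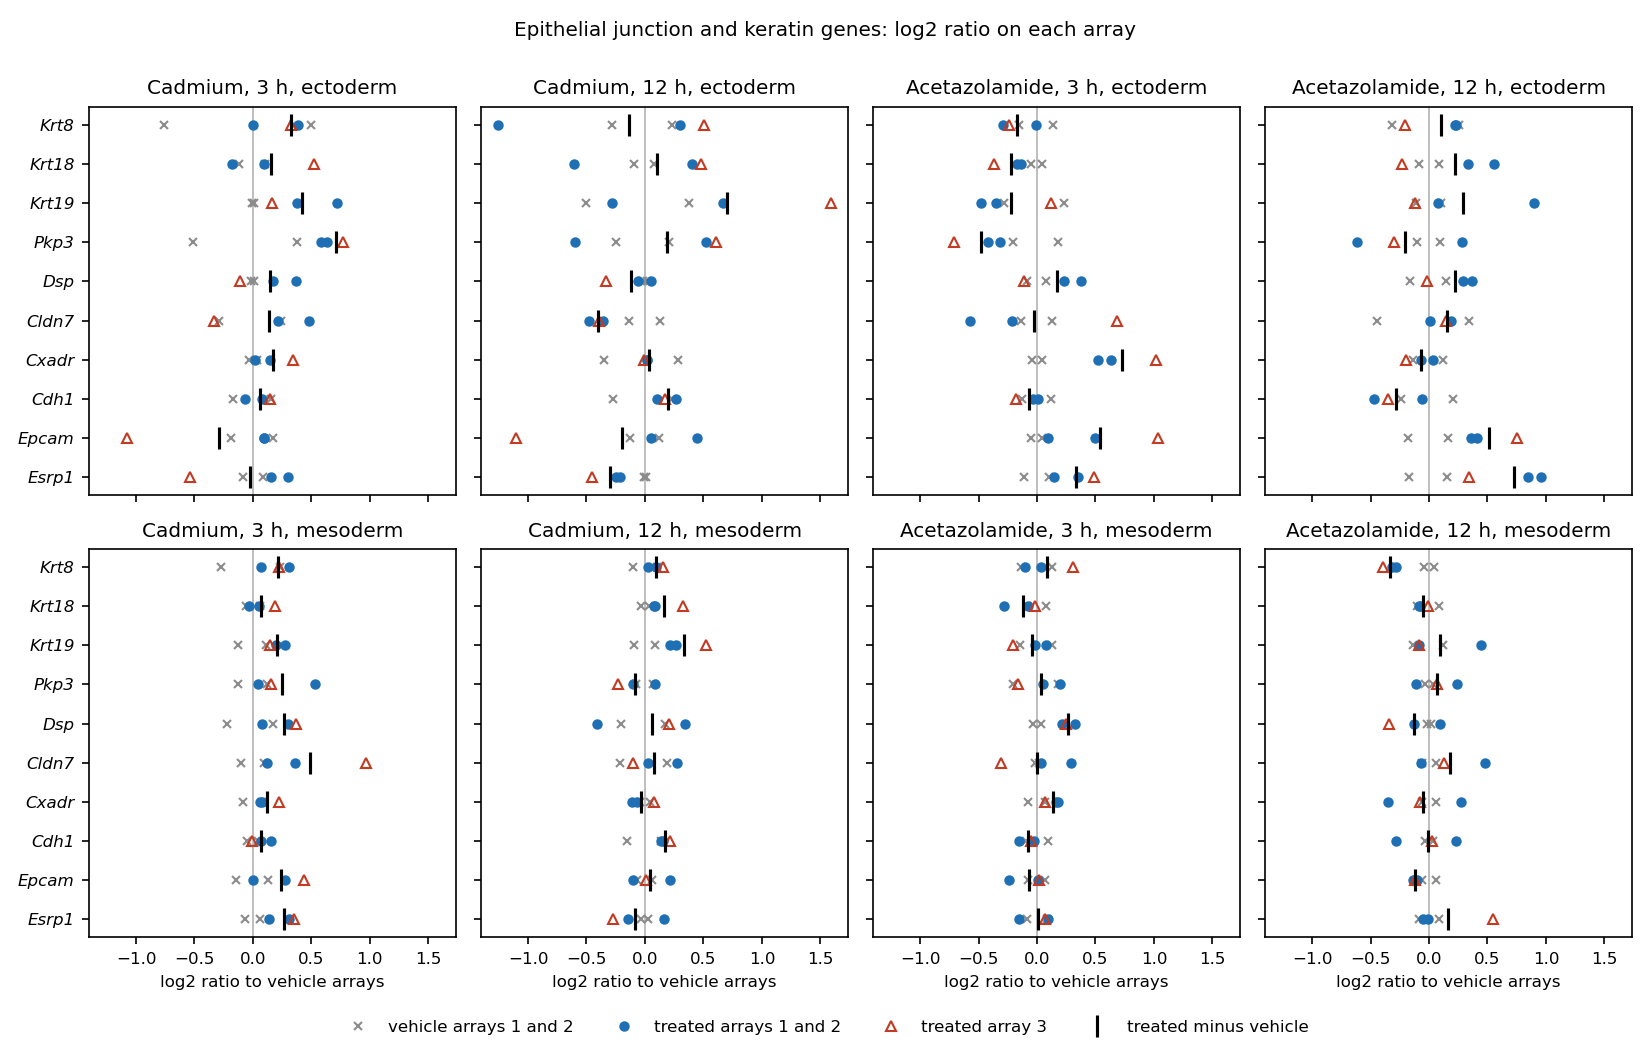
Log2 ratio to vehicle arrays (horizontal axis) of the 10 genes on each array, in 8 panels for agent, time and tissue. Crosses are vehicle arrays 1 and 2, filled circles treated arrays 1 and 2, open triangles treated array 3, and bars the fitted difference of treated minus vehicle arrays. Ectoderm points are spread more widely than mesoderm points, and the triangles for Epcam lie at -1.08 and -1.11 after cadmium and at 1.03 and 0.75 after acetazolamide.

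Across the 8 comparisons the 10 genes did not move as a block. At 3 h after cadmium, 8 of 10 differences were above 0 in ectoderm (median 0.15, from -0.29 for Epcam to 0.71 for Pkp3) and 10 of 10 in mesoderm (median 0.23, from 0.070 for Krt18 to 0.48 for Cldn7). Of all genes, 46.9% and 50.3% were above 0 there, with medians of -0.0078 and 0.00072. At 12 h after cadmium, 5 of 10 were above 0 in ectoderm (median -0.042) and 7 of 10 in mesoderm (median 0.067), where 57.6% and 54.4% of all genes were above 0.

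After acetazolamide at 3 h, 4 of 10 differences were above 0 in ectoderm (median -0.047, from -0.48 for Pkp3 to 0.72 for Cxadr) and 6 of 10 in mesoderm (median 0.0048), where 38.9% and 43.5% of all genes were above 0. At 12 h, 7 of 10 were above 0 in ectoderm (median 0.18, from -0.28 for Cdh1 to 0.72 for Esrp1) and 4 of 10 in mesoderm (median -0.031), where 49.6% and 53.3% of all genes were above 0. From arrays 1 and 2 alone the ectoderm medians were 0.25 and -0.013 after cadmium (3 h and 12 h) and -0.075 and 0.30 after acetazolamide. From the third array alone they were 0.16, 0.084, 0.0053 and -0.16 in the same order.

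Most of these medians turned on single arrays. Only that of 3 h cadmium mesoderm stayed within 1.5 times its value whichever array was left out (0.17 to 0.26). The 3 h cadmium ectoderm median was 0.038 without PBS array 1, and the 12 h acetazolamide ectoderm median 0.041 without oil array 1. The other 5 changed sign. They were 0.088 without cadmium array 2 in 12 h cadmium ectoderm, -0.012 without cadmium array 1 in 12 h cadmium mesoderm, 0.051 without acetazolamide array 2 in 3 h acetazolamide ectoderm, -0.074 without acetazolamide array 1 in 3 h acetazolamide mesoderm and 0.13 without acetazolamide array 1 in 12 h acetazolamide mesoderm.

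Few of these differences passed an adjusted p of 0.05 in limma over all genes. In ectoderm after acetazolamide at 3 h the count was 1 of 10, Cxadr, where 0.0242% of all genes passed. It was 0 of 10 in the other 7 comparisons. There, 0% of all genes passed in 3 h cadmium ectoderm (274 genes at an unadjusted p under 0.05) and 0% in 3 h cadmium mesoderm (255), 0.0242% in 12 h cadmium ectoderm (367) and 2.28% in 12 h cadmium mesoderm (1142). In the acetazolamide arm 0.0364% passed in 3 h mesoderm (607), 0% in 12 h ectoderm (649) and 0% in 12 h mesoderm (65). The comparisons chose the genes, so nothing is read from these counts.

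Treated arrays lay wholly to one side of the vehicle arrays for a minority of the genes. Vehicle array 3 is 0 by its making, between vehicle arrays 1 and 2, so only arrays 1 and 2 set the limits here and below. By its number, treated array 3 has another denominator than they do. In ectoderm after cadmium, 2 genes lay wholly above and 0 wholly below at 3 h (5.57% and 3.82% of all genes), and 0 above and 2 below at 12 h (4.33% and 5.72%). In mesoderm after cadmium, 3 lay above and 0 below at 3 h (5.45% and 4.18% of all genes), and 2 above and 0 below at 12 h (9.8% and 9.51%). In ectoderm after acetazolamide, 3 lay above and 2 below at 3 h (4.76% and 9.09% of all genes), and 2 above and 0 below at 12 h (8.48% and 8.31%). In mesoderm after acetazolamide, 2 lay above and 0 below at 3 h (9.33% and 6.59% of all genes), and 0 above and 2 below at 12 h (3.43% and 2.48%). Nothing is read from these counts either, and the genes are named with their values below.

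The keratins form the intermediate filaments of simple epithelia. Krt8 encodes a type II keratin that pairs with the type I keratin of Krt18. In ectoderm 3 h after cadmium, Krt8 stood at -0.0036, 0.38 and 0.33 on treated arrays 1, 2 and 3 and at -0.76 and 0.50 on vehicle arrays 1 and 2, a difference of 0.33 ± 0.23 (0.32 without the third arrays). The vehicle arrays alone spanned more than the treated arrays did, and the groups overlapped. Krt18 stood at -0.18, 0.093 and 0.53 there (0.15 ± 0.13), with its highest value on the third array. Without that array the Krt18 difference was -0.036, on the other side of 0.

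At 12 h after cadmium the second ectoderm array was low for both keratins and the other treated arrays were high. Krt8 stood at 0.30, -1.26 and 0.50 on the treated arrays against -0.28 and 0.23 on the vehicle arrays (-0.14 ± 0.36). Krt18 stood at 0.41, -0.60 and 0.48 against -0.094 and 0.081 (0.099 ± 0.21). On the same second array the 3′ to 5′ ratio of the Gapdh control probe sets, a sign of RNA breakdown, was 1.80 in log2, against -0.67 and 0.44 on arrays 1 and 3. The actin control did not stand out there, at 0.078 against 0.025 and 0.074 on arrays 1 and 3. The part of RNA quality in the keratin values was not tested. From arrays 1 and 2 alone Krt8 differed by -0.46 and Krt18 by -0.092, and from the third array by 0.50 and 0.48.

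Krt19, which encodes a small type I keratin, gave the widest array-to-array range of the 3 keratins at this point. It stood at 0.67, -0.28 and 1.59 on the 12 h cadmium ectoderm arrays, against -0.51 and 0.37 on the vehicle arrays, a difference of 0.70 ± 0.30. The groups overlapped through the second array, and the difference was 0.26 without the third array and 1.59 from that array alone. In ectoderm at 3 h Krt19 was above both vehicle arrays on all cadmium arrays, at 0.37, 0.72 and 0.16 (0.42 ± 0.19, and 0.55 without the third array), with vehicle arrays at 0.0070 and -0.012.

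In mesoderm after cadmium the keratins were higher on most arrays by small amounts. Krt19 at 12 h was above the vehicle arrays on all treated arrays, at 0.27, 0.22 and 0.52 against 0.088 and -0.097 (0.34 ± 0.16), and so was Krt18, at 0.075, 0.082 and 0.33 against -0.035 and 0.032 (0.16 ± 0.11). Krt8 was not, with a difference of 0.093 ± 0.18. At 3 h the differences were 0.22 for Krt8, 0.070 for Krt18 and 0.21 for Krt19, and Krt19 alone of the 3 had all treated arrays above (0.28, 0.19 and 0.15 against -0.12 and 0.11).

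After acetazolamide the keratin differences were below 0 in ectoderm at 3 h. Krt18 was below the vehicle arrays on all treated arrays, at -0.13, -0.17 and -0.36 against 0.046 and -0.048 (-0.22 ± 0.15). Krt8 and Krt19 differed by -0.17 ± 0.25 and -0.22 ± 0.21 with overlapping groups, and Krt19 stood at 0.12 on the third array. Without the third array the differences were -0.14 for Krt8, -0.15 for Krt18 and -0.39 for Krt19. At 12 h all 3 keratins were above 0 on ectoderm arrays 1 and 2 and below 0 on array 3. Krt18 stood at 0.33, 0.55 and -0.23 (0.22 ± 0.18), Krt19 at 0.076, 0.90 and -0.12 (0.29 ± 0.26) and Krt8 at 0.23, 0.22 and -0.21 (0.10 ± 0.30). Without the third array these differences were larger, at 0.45, 0.49 and 0.25 in the same order.

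In mesoderm 12 h after acetazolamide Krt8 was the lowest of the 10 genes. It stood at -0.31, -0.29 and -0.39 on the treated arrays against -0.045 and 0.043 on the vehicle arrays, a difference of -0.33 ± 0.26 (a fold of 0.796). The 3 treated arrays were close together and wholly below. Its partner Krt18 differed by -0.053 ± 0.15 there and Krt19 by 0.093 ± 0.22, both overlapping. At 3 h in mesoderm the 3 keratins differed by 0.083, -0.12 and -0.043 in the order Krt8, Krt18 and Krt19, all overlapping. Without the third array these were -0.029, -0.17 and 0.038, so Krt8 and Krt19 changed sign.

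Krt18 and Krt19 had 2 probe sets each, which were averaged. Over the 24 treated arrays the pair correlated at 0.49 for Krt18 and 0.78 for Krt19, and their differences had the same sign in 5 and 7 of 8 comparisons. The widest gaps were 0.57 and 0.48, both in ectoderm 12 h after acetazolamide. A probe set of Krt19 and the probe set of Cldn7 carry the suffix that the array maker used for probes shared by a sequence family, so related transcripts could add to those signals.

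The desmosome genes did not go together. Pkp3 encodes plakophilin 3, an armadillo-repeat protein of the desmosomal plaque, and Dsp encodes desmoplakin, which ties the plaque to keratin. Pkp3 gave the highest cadmium value of the 10 genes at 3 h and the lowest acetazolamide value at 3 h, both in ectoderm. After cadmium it stood at 0.63, 0.58 and 0.77 against -0.51 and 0.38 on the vehicle arrays, a difference of 0.71 ± 0.20 (a fold of 1.63), which ranked 5 from the top among 8252 genes. After acetazolamide it stood at -0.42, -0.32 and -0.71 against 0.18 and -0.20 (-0.48 ± 0.21, a fold of 0.719).

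In both of these comparisons the third array lay on the same side as arrays 1 and 2. Without it the Pkp3 difference was 0.68 after cadmium and -0.36 after acetazolamide. The PBS arrays of that comparison lay far apart for Pkp3, so the difference was 0.46 without PBS array 1 and 0.97 without PBS array 2. At 12 h Pkp3 no longer separated the groups in ectoderm, at 0.52, -0.60 and 0.61 after cadmium (0.19 ± 0.31) and -0.62, 0.29 and -0.30 after acetazolamide (-0.21 ± 0.26). Without the third array the cadmium value changed sign to -0.022, and the acetazolamide value was -0.16. On the second 12 h cadmium array Pkp3 was low together with Krt8, Krt18 and Krt19. In mesoderm its differences were 0.25 and -0.084 after cadmium and 0.037 and 0.066 after acetazolamide (3 h and 12 h), all overlapping.

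Dsp separated the groups in mesoderm 3 h after acetazolamide. It stood at 0.33, 0.21 and 0.25 on the treated arrays against 0.031 and -0.033 on the vehicle arrays, a difference of 0.26 ± 0.17 with all treated arrays above. In ectoderm of that time the difference was 0.17 ± 0.17, made of 0.38, 0.23 and -0.11, and the third array lay below the others (0.31 without it). At 12 h after acetazolamide Dsp differed by 0.22 ± 0.21 in ectoderm (0.34 without the third array) and by -0.12 ± 0.18 in mesoderm. After cadmium it differed by 0.14 and -0.12 in ectoderm (0.27 and -0.0047 without the third arrays) and by 0.27 and 0.057 in mesoderm (0.22 and -0.017 without them), all overlapping.

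The Dsp values rest on 2 probe sets that scarcely tracked each other. Their correlation over the 24 treated arrays was 0.091, their differences shared a sign in 5 of 8 comparisons, and the widest gap was 0.66 in ectoderm 12 h after acetazolamide. The more variable probe set alone gave a difference of 0.56 in mesoderm 3 h after acetazolamide, from treated values of 0.73, 0.60 and 0.36. The other stood at -0.074, -0.17 and 0.14 there, and it carries the suffix for probes chosen under relaxed rules. In ectoderm 12 h after acetazolamide the first stood at 0.70, 0.90 and 0.0099 and the other at -0.12, -0.16 and -0.049.

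Among the tight junction genes, Cldn7 encodes claudin 7, a strand protein of the seal. It stood at -0.48, -0.36 and -0.39 in ectoderm 12 h after cadmium, against -0.14 and 0.13 on the vehicle arrays (-0.41 ± 0.32, a fold of 0.755). The 3 treated arrays were close together and wholly below, and here the third array (-0.39) matched the difference from arrays 1 and 2 (-0.41). Its SE combines the spread of Cldn7 over all comparisons with a weight for this comparison, whose residual SD over all genes, 0.223, was the highest of the 8. In mesoderm 3 h after cadmium all Cldn7 arrays lay above the vehicle arrays, at 0.12, 0.36 and 0.96 against 0.093 and -0.1 (0.48 ± 0.17), and the third array carried most of the difference (0.24 without it). It ranked 6 from the top among 8252 genes there.

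In the other comparisons Cldn7 overlapped. In ectoderm 3 h after cadmium it stood at 0.48, 0.22 and -0.33 (0.14 ± 0.20) and 3 h after acetazolamide at -0.21, -0.57 and 0.68 (-0.030 ± 0.22), so that in both cases the third array had the opposite sign to arrays 1 and 2. Without it these differences were 0.37 and -0.39. The remaining differences were 0.15 in 12 h acetazolamide ectoderm (0.15 without the third array) and 0.077, 0.0042 and 0.18 in mesoderm (12 h cadmium, 3 h and 12 h acetazolamide).

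Cxadr encodes the coxsackievirus and adenovirus receptor, an immunoglobulin-like protein of epithelial junctions. In ectoderm 3 h after acetazolamide it stood at 0.52, 0.63 and 1.02 on the treated arrays and at 0.043 and -0.044 on the vehicle arrays. All treated arrays lay above all vehicle arrays, the difference was 0.72 ± 0.12 (a fold of 1.65), and arrays 1 and 2 alone gave 0.58. This is the comparison in which it passed the threshold. It no longer passed when the 6 arrays of the comparison were fitted alone, or without acetazolamide array 2. At 12 h the ectoderm difference was -0.071 ± 0.15, with treated arrays at -0.066, 0.035 and -0.19 within the vehicle range or just below it (-0.0097 without the third array).

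In mesoderm 3 h after acetazolamide Cxadr was also above the vehicle arrays on all treated arrays, by less, at 0.18, 0.16 and 0.072 against 0.071 and -0.075 (0.14 ± 0.12). The lowest treated value exceeded the highest vehicle value by little. After cadmium Cxadr differed by 0.17 and 0.032 in ectoderm (0.080 and 0.051 without the third arrays) and by 0.12 and -0.031 in mesoderm, and all of these overlapped. In 12 h cadmium ectoderm the treated arrays were almost equal, at 0.021, 0.014 and -0.0075.

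Cdh1 encodes E-cadherin, the adhesion protein of the adherens junction whose loss accompanies the change from epithelium to mesenchyme. Cdh1 had no difference farther from 0 than -0.284. In ectoderm it differed by 0.059 ± 0.12 and 0.20 ± 0.18 after cadmium and by -0.064 ± 0.13 and -0.28 ± 0.16 after acetazolamide, at 3 h and 12 h. Without the third arrays these were 0.015, 0.21, -0.0066 and -0.25 in that order. At 12 h after acetazolamide the ectoderm arrays stood at -0.47, -0.064 and -0.35 against 0.20 and -0.24, all below 0 and overlapping. In mesoderm the differences were 0.073 and 0.17 after cadmium and -0.075 and -0.0083 after acetazolamide. The treated arrays never lay wholly to one side of the vehicle arrays for Cdh1 in any of the 8 comparisons.

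Epcam encodes an epithelial cell adhesion glycoprotein that marks many embryonic epithelia. After acetazolamide it was above the vehicle arrays on all ectoderm arrays at both times. At 3 h it stood at 0.49, 0.095 and 1.03 against -0.047 and 0.046 (0.54 ± 0.20, a fold of 1.45), and at 12 h at 0.41, 0.36 and 0.75 against -0.18 and 0.16 (0.52 ± 0.25). Without the third arrays the differences were 0.29 and 0.40. The third array was the highest at both times.

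After cadmium the Epcam ectoderm values turned on the third array. At 3 h it stood at 0.092, 0.099 and -1.08 (-0.29 ± 0.19) and at 12 h at 0.048, 0.45 and -1.11 (-0.20 ± 0.30). From arrays 1 and 2 the differences were 0.11 and 0.25, above 0, and from the third array -1.08 and -1.11. No direction is given for Epcam in cadmium ectoderm, since leaving out that array turned the sign at both times. In mesoderm Epcam differed by 0.24 and 0.043 after cadmium and by -0.071 after acetazolamide at 3 h, all overlapping. In mesoderm 12 h after acetazolamide it was narrowly but wholly below, at -0.14, -0.10 and -0.12 against -0.060 and 0.057 (-0.12 ± 0.21).

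Esrp1 encodes a splicing factor that keeps transcripts such as Fgfr2 in their epithelial isoform. After acetazolamide it was above the vehicle arrays on all ectoderm arrays at both times, as Epcam was. It stood at 0.15, 0.35 and 0.49 against -0.12 and 0.11 at 3 h (0.33 ± 0.15) and at 0.85, 0.96 and 0.34 against -0.17 and 0.15 at 12 h (0.72 ± 0.18, a fold of 1.65). At 12 h the third array was the lowest of the 3. Without the third arrays the differences were 0.25 and 0.91.

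In ectoderm 12 h after cadmium Esrp1 was wholly below, at -0.21, -0.25 and -0.45 against -0.012 and 0.012 (-0.30 ± 0.21, and -0.23 without the third array). At 3 h it stood at 0.30, 0.15 and -0.54 (-0.027 ± 0.13), where arrays 1 and 2 lay above the vehicle arrays and the third below them. Without the third array the difference was 0.23, on the other side of 0. In mesoderm 3 h after cadmium it was wholly above, at 0.31, 0.14 and 0.35 against 0.062 and -0.065 (0.27 ± 0.11). Its other mesoderm differences were -0.086 after cadmium at 12 h and 0.0053 and 0.16 after acetazolamide, all overlapping. Without the third arrays these were 0.0076, -0.028 and -0.028, each on the other side of 0.

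Ectoderm was next set against mesoderm. The difference of the 2 agent differences had a median over the 10 genes of 0.015 at 3 h and -0.12 at 12 h after cadmium, and of -0.064 and 0.23 after acetazolamide. Of all genes the medians were -0.00063, 0.014, -0.019 and 0.018 in the same order. No gene of the array passed an adjusted p of 0.05 in limma in any of these 4 contrasts (0% each, with 68, 114, 140 and 230 genes at an unadjusted p under 0.05). The genes had been chosen with these contrasts known. The medians were -0.13 without the 3 h PBS ectoderm array 1, 0.018 without the 12 h cadmium ectoderm array 2, 0.040 without the 3 h oil ectoderm array 1 and 0.085 without the 12 h acetazolamide ectoderm array 2.

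The 8 of these 40 values farthest from 0 belonged to Epcam, Cxadr, Esrp1, Pkp3 and Cldn7. Their intervals are for single values and are not adjusted for picking the farthest. An interval that leaves out 0 is therefore no test here. Epcam gave 0.61 (95% interval 0.018 to 1.20) at 3 h and 0.63 (95% interval -0.040 to 1.31) at 12 h after acetazolamide, and -0.53 (95% interval -1.03 to -0.027) at 3 h after cadmium. From arrays 1 and 2 alone the Epcam values were 0.41, 0.52 and -0.038 in that order. Cxadr gave 0.59 (95% interval 0.24 to 0.94) at 3 h and Esrp1 0.56 (95% interval 0.080 to 1.04) at 12 h after acetazolamide. Pkp3 gave -0.51 (95% interval -1.13 to 0.11) after acetazolamide and 0.46 (95% interval -0.063 to 0.99) after cadmium, both at 3 h, and Cldn7 -0.48 (95% interval -1.23 to 0.26) at 12 h after cadmium. From arrays 1 and 2 alone these were 0.40 for Cxadr, 0.94 for Esrp1, -0.50 and 0.39 for Pkp3 and -0.58 for Cldn7.

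**Figure D2:**
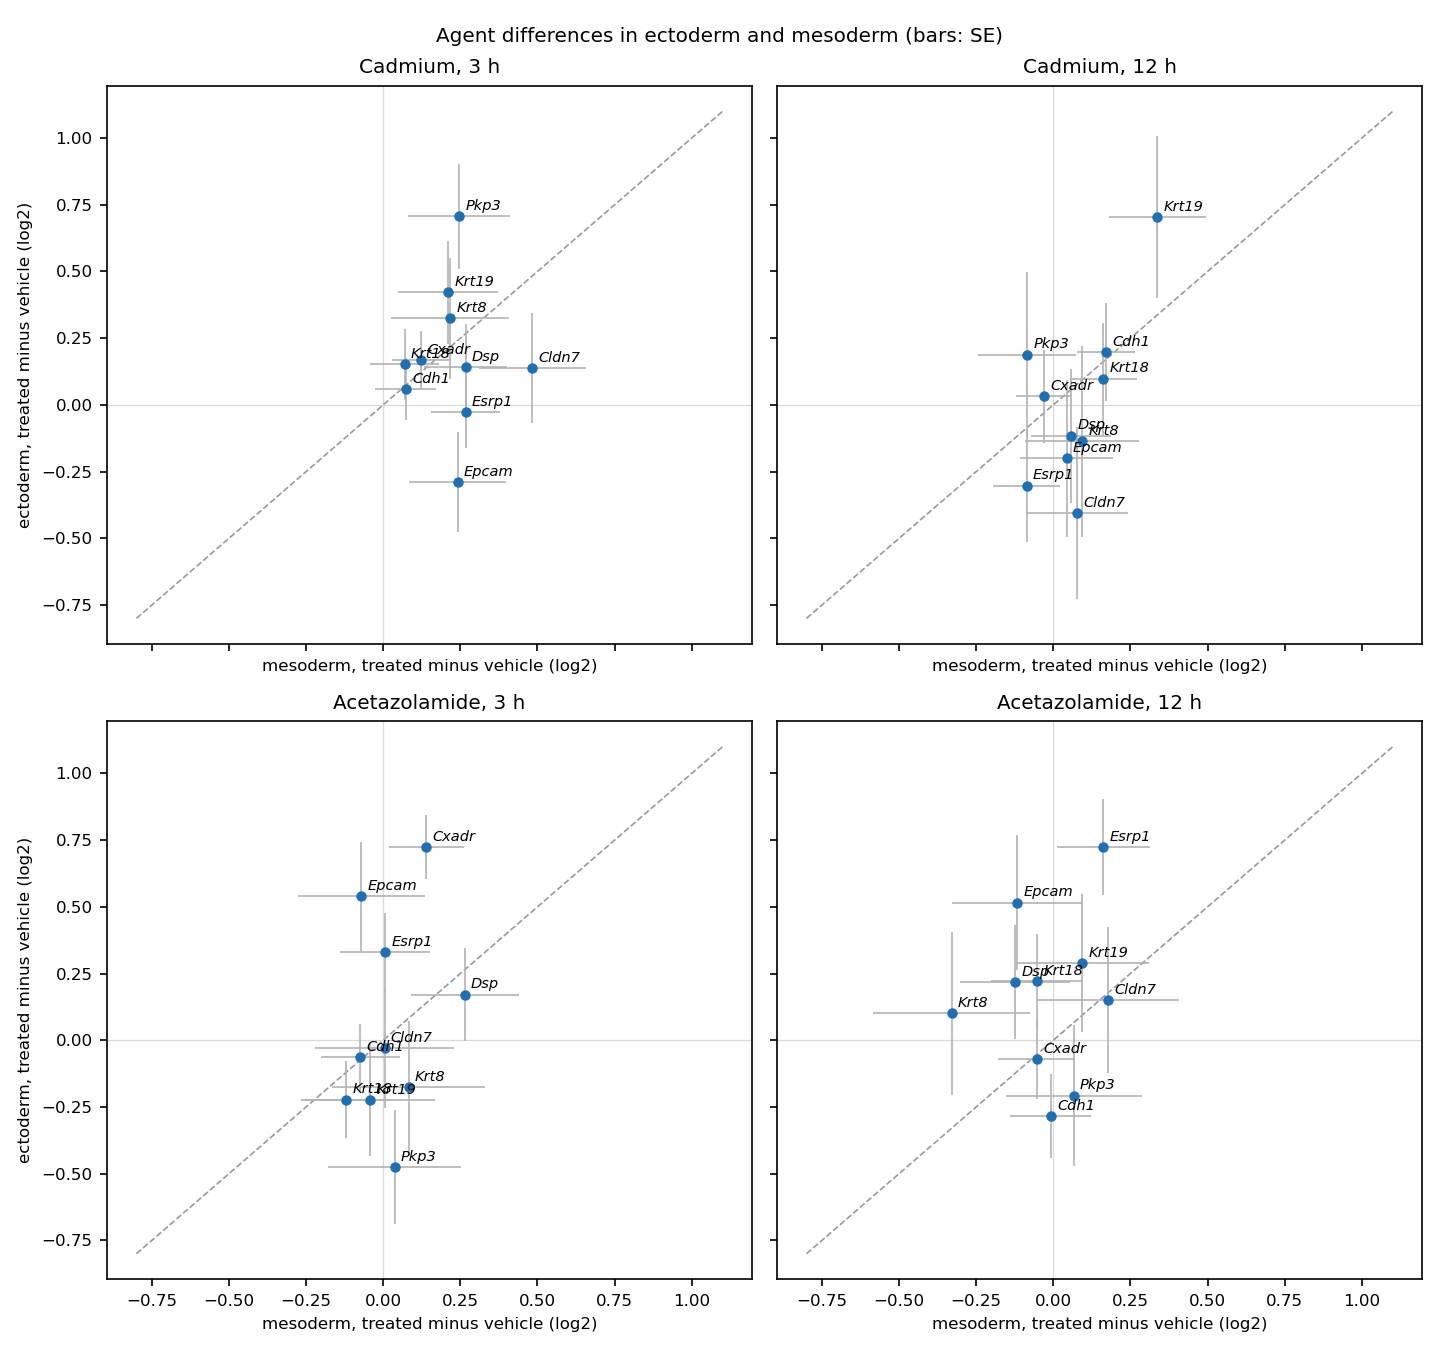
Fitted log2 difference of treated minus vehicle arrays in ectoderm (vertical axis) against mesoderm (horizontal axis) for the 10 genes, with a panel for each agent and time and bars of 1 SE. Points above the dashed line of equal values differ more upward in ectoderm, such as Cxadr at 3 h and Esrp1 at 12 h after acetazolamide (0.72 in ectoderm for both), and Cldn7 at 12 h after cadmium lies below it (-0.41 in ectoderm, 0.077 in mesoderm).

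The genes were then set against each other. Over the 24 treated arrays the 45 pairs had a median Pearson correlation of 0.016, with 24 pairs above 0, and the extremes were Krt8 with Krt18 at 0.78 and Pkp3 with Epcam at -0.67. The median was 0.0028 over the 12 ectoderm arrays (23 pairs above 0) and 0.27 over the 12 mesoderm arrays (35 above 0). The 3 arrays of a comparison share vehicle arrays, so these points are not independent, and no p is given. The groupings below were chosen after the values were seen.

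In ectoderm the keratins and Pkp3 tracked each other, and Epcam ran against them. Krt8 correlated at 0.84 with Krt18, 0.64 with Krt19 and 0.64 with Pkp3 over the 12 ectoderm arrays. Epcam correlated at -0.74 with Pkp3, -0.63 with Krt18, -0.53 with Krt19 and -0.50 with Krt8. Esrp1 went with Epcam at 0.68 and with Dsp at 0.67, and ran against Cdh1 at -0.77.

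Some of these values rested on the third arrays and some did not. Over the 8 ectoderm arrays without them, Krt8 with Krt18 was 0.83, Pkp3 with Epcam -0.73 and Esrp1 with Cdh1 -0.79. Esrp1 with Epcam came down to 0.24 and Krt18 with Epcam to -0.15. The keratin pairs and Pkp3 with Krt19 (0.82) kept their sign. So did Pkp3 with Krt8 (0.56) and with Krt18, which came down from 0.64 to 0.39. The 8 arrays include the second 12 h cadmium array, on which Pkp3 and the keratins were all below 0.

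Mesoderm gave another order. Epcam was above 0 with Krt8 (0.69) and Krt18 (0.58), the reverse of its sign in ectoderm, and close to 0 with Pkp3 (-0.0027). Krt19 and Cdh1 gave the highest mesoderm value (0.80), and Krt8 with Krt18 gave 0.48. Mesoderm ratios spanned a narrower range, so that a given correlation there describes smaller shifts. The difference between the tissues was not tested.

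**Figure D3:**
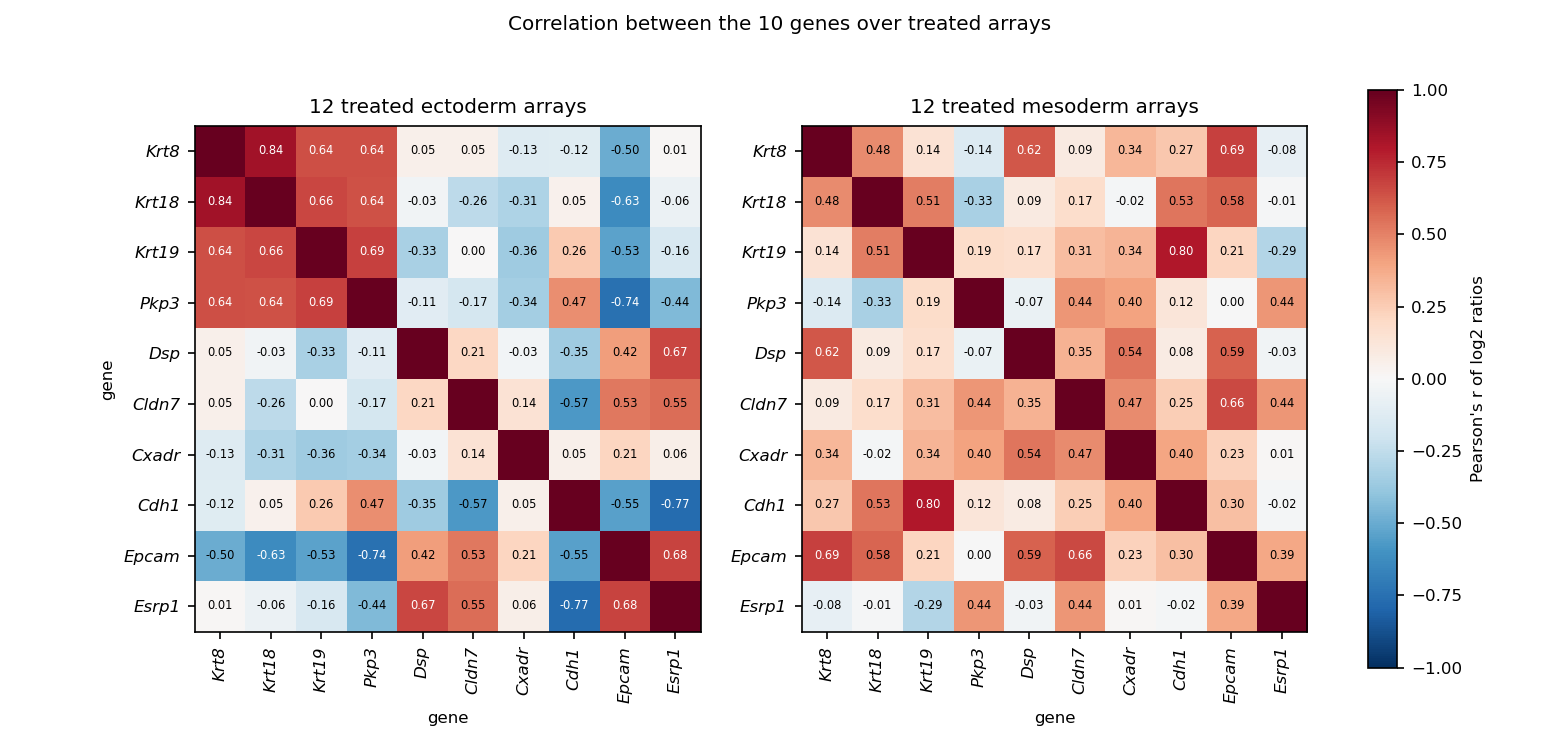
Pearson correlation of log2 ratios between each pair of the 10 genes over 12 treated ectoderm arrays (left) and 12 treated mesoderm arrays (right), with the value in each cell and colour from -1 (blue) to 1 (red). In ectoderm a block of Krt8, Krt18, Krt19 and Pkp3 stands at 0.64 to 0.84, with Epcam at -0.74 to -0.50 against its genes, while in mesoderm Epcam with Krt8 is 0.69.

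The correlations of Esrp1 with the keratins in ectoderm were nearer 0 than those of Epcam. Esrp1 correlated at 0.011 with Krt8, -0.061 with Krt18 and -0.16 with Krt19 over the 12 arrays, and at 0.45, 0.57 and 0.25 over the 8 without the third arrays.

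The mean of the 3 keratins was also set beside the mean of Epcam and Esrp1 on each ectoderm array. On the third cadmium ectoderm arrays the keratin mean was 0.34 at 3 h and 0.86 at 12 h, with Epcam and Esrp1 at -0.81 and -0.78. On the 3 h acetazolamide ectoderm arrays the keratin mean was -0.21, -0.27 and -0.16, with Epcam and Esrp1 at 0.32, 0.22 and 0.76. On these arrays the means had opposite signs. On arrays 1 and 2 of 12 h cadmium ectoderm they did too, with keratins at 0.46 and -0.71 and Epcam and Esrp1 at -0.082 and 0.10. Arrays 1 and 2 of the remaining ectoderm groups had both means above 0. At 3 h after cadmium the keratins were at 0.064 and 0.40 and Epcam and Esrp1 at 0.20 and 0.13, and at 12 h after acetazolamide the keratins were at 0.21 and 0.56 and Epcam and Esrp1 at 0.63 and 0.66. On the third array of that last group the signs were opposite, at -0.19 and 0.54.

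**Figure D4:**
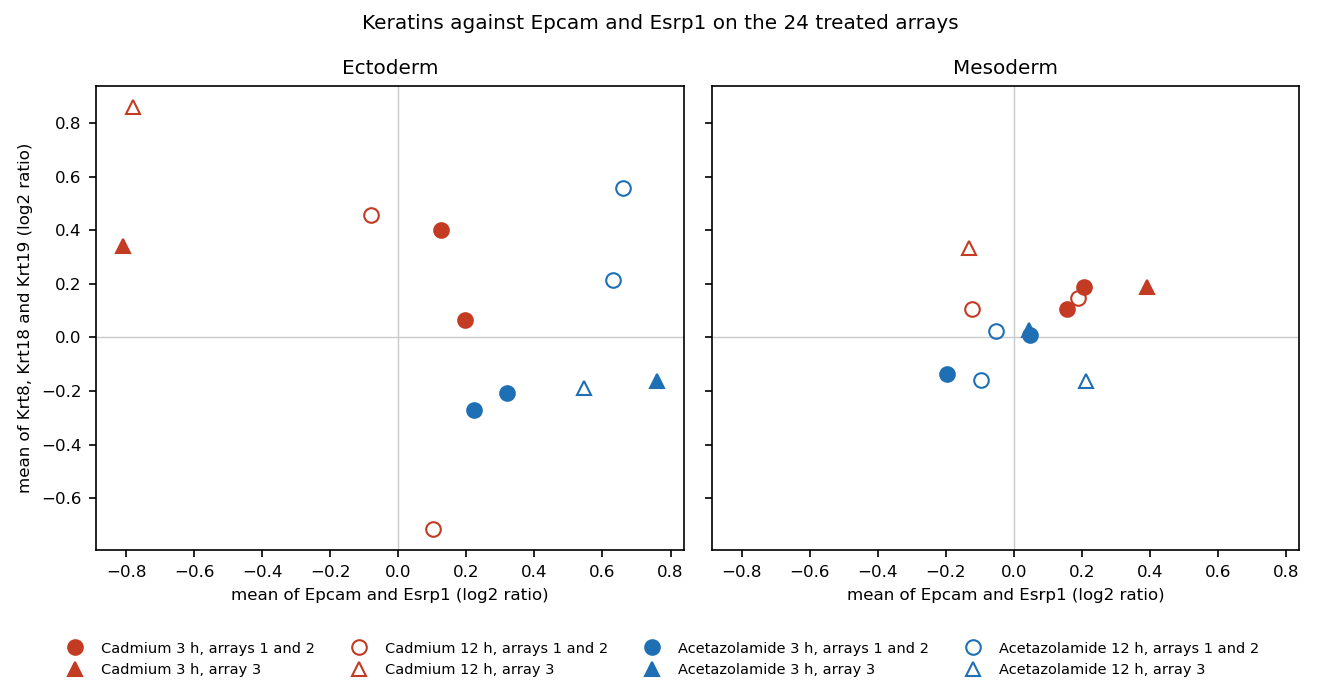
Mean log2 ratio of Krt8, Krt18 and Krt19 (vertical axis) against the mean of Epcam and Esrp1 (horizontal axis) on each treated array, ectoderm on the left and mesoderm on the right. Red is cadmium and blue acetazolamide, filled marks are 3 h and open marks 12 h, and triangles are the third arrays. The third cadmium ectoderm arrays lie at the upper left (0.34 and 0.86 for the keratins), and mesoderm arrays stay near the centre.

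The vehicle arrays offer a measure that the choice of genes did not use, the log2 ratio of vehicle array 1 to vehicle array 2 in each of 8 vehicle groups. The median size of this ratio over the 10 genes was 0.27 in ectoderm and 0.16 in mesoderm, beside 0.21 and 0.17 over all genes. Krt8 gave the widest value, -1.26 between the PBS ectoderm arrays at 3 h, followed by Pkp3 in the same pair (-0.89), Krt19 in the PBS ectoderm pair at 12 h (-0.88) and Cldn7 in the oil ectoderm pair at 12 h (-0.78). For each of these 4 genes that ratio was wider than any of its 8 differences between treated and vehicle arrays.

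Over these 8 vehicle pairs several of the same gene pairs were again far from 0. Krt8 correlated at 0.82 with Pkp3 and at 0.58 with Krt18, Esrp1 at 0.78 with Epcam, and Epcam at -0.54 with Pkp3. Epcam with Krt18 was 0.14 and with Krt19 0.20, unlike the treated ectoderm arrays. Cdh1 with Epcam was -0.79, and Cxadr with Krt19 -0.83. The points are 4 ectoderm and 4 mesoderm pairs whose order within a pair is only a number, so these values are a description.

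**Figure D5:**
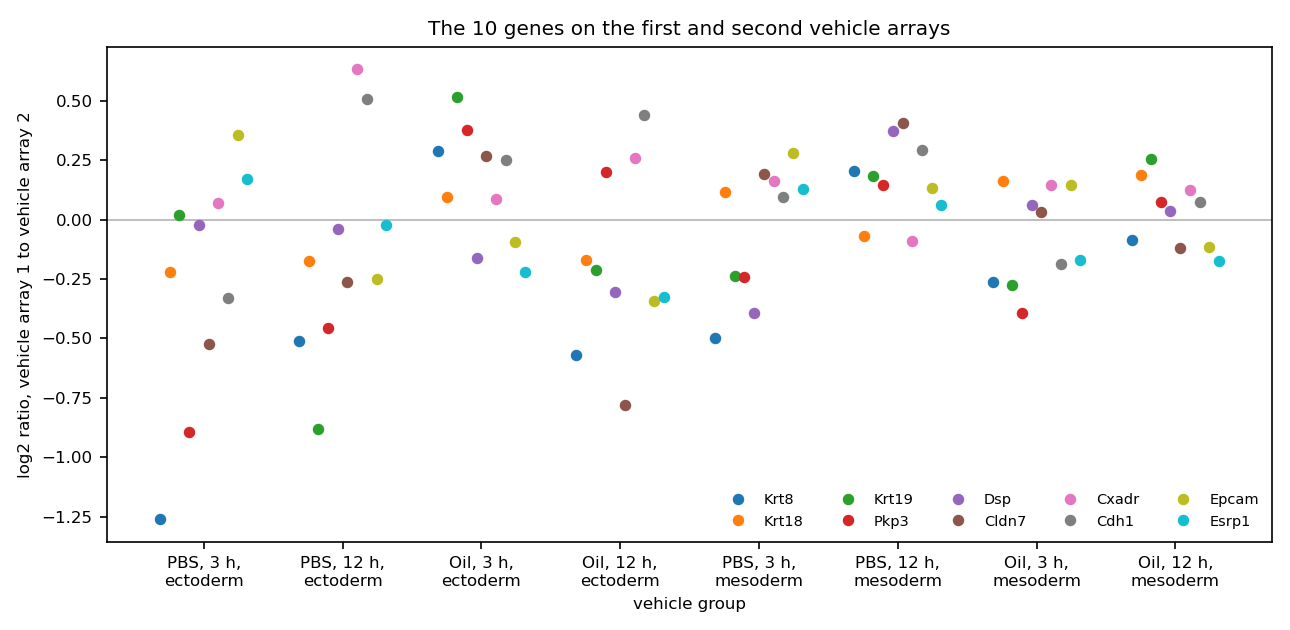
Log2 ratio of vehicle array 1 to vehicle array 2 (vertical axis) for the 10 genes in 8 vehicle groups, 4 of ectoderm and 4 of mesoderm, with a colour for each gene. Ectoderm pairs spread more, with Krt8 at -1.26 and Pkp3 at -0.89 in the PBS pair at 3 h.

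Other genes of the same structures were counted from lists of 4 kinds. Measured were 30 of 44 other junction and adhesion genes, 16 of 18 other keratins, 20 of 30 other epithelial surface and basement membrane genes and 15 of 22 regulators of the epithelial state. In limma 0 of them passed the adjusted threshold in any of the 8 comparisons, whose background counts are given above. The list medians lay between -0.10 and 0.13 in every comparison.

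Among the junction genes the largest difference was that of Gjb2, a gap junction gene of epidermis, at -1.52 ± 0.38 in ectoderm 12 h after cadmium. Dsc2, a desmosomal cadherin, stood at 0.67 ± 0.26 and Ppl, the plaque protein periplakin, at 0.61 ± 0.18 in acetazolamide ectoderm at 3 h and 12 h. In 3 h cadmium samples Cldn4 was the largest in ectoderm (0.44 ± 0.19) and Cldn6 in mesoderm (0.43 ± 0.16), both claudins. In the other comparisons the largest were Nectin3 at -0.42 ± 0.12 (12 h cadmium mesoderm), F11r at 0.34 ± 0.17 and Pkp4 at -0.18 ± 0.29 (3 h and 12 h acetazolamide mesoderm). Among the other keratins Krt7 was the largest in 3 comparisons, at 0.49 ± 0.24 and 0.17 ± 0.20 in ectoderm and mesoderm 3 h after cadmium and at 0.42 ± 0.32 in ectoderm 12 h after acetazolamide. Elsewhere the largest keratin was Krt17 in 12 h cadmium ectoderm (0.33 ± 0.15), Krt71 in 12 h cadmium mesoderm (0.099 ± 0.086) and Krt10 in 3 h acetazolamide ectoderm (-0.28 ± 0.14). In acetazolamide mesoderm it was Krt16 at 3 h (-0.14 ± 0.17) and Krt4 at 12 h (0.097 ± 0.11).

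Among surface genes Itga6, the laminin-binding integrin chain of the hemidesmosome, was the largest in 3 of the 4 acetazolamide comparisons. It stood at 0.90 ± 0.25 and 0.71 ± 0.25 in ectoderm and mesoderm at 3 h, and at 0.58 ± 0.31 in ectoderm at 12 h, and Cd9 was the largest in mesoderm at 12 h (0.14 ± 0.21). After cadmium the largest was Rab25 at 3 h (0.38 ± 0.24 in ectoderm, 0.43 ± 0.20 in mesoderm), Anxa8 in ectoderm at 12 h (0.46 ± 0.20) and Spint1 in mesoderm at 12 h (0.47 ± 0.16). Among regulators Trp63, the p63 transcription factor of stratified epithelia, stood at -1.0 ± 0.42 in ectoderm 12 h after cadmium and at 0.81 ± 0.29 in ectoderm 3 h after acetazolamide. Tfap2b, an AP-2 factor, stood at 0.80 ± 0.25 in ectoderm and 0.30 ± 0.21 in mesoderm 3 h after cadmium. Tcf4, a basic helix-loop-helix factor that can repress Cdh1, stood at 0.99 ± 0.66 in ectoderm 12 h after acetazolamide and at -0.42 ± 0.40 in mesoderm 12 h after cadmium. Snai1, which encodes the repressor Snail, was the largest in acetazolamide mesoderm, at -0.60 ± 0.30 and -0.39 ± 0.30.

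Markers of cell types that a sample could hold were counted beside these results. In mesoderm 3 h after cadmium, where all 10 genes were above 0, 16 of 23 apical ridge and limb ectoderm markers were above 0 (median 0.16), 11 of 26 mesenchyme markers (median -0.016) and 6 of 6 mesothelium markers (median 0.099). Above 0 there were also 6 of 14 endothelial, 2 of 11 red blood cell, 5 of 13 endoderm and 3 of 9 leukocyte markers. Of all genes, 50.3% were above 0. The median of the ectoderm list ran from 0.054 to 0.14 on the 3 treated arrays and from -0.036 to 0.034 on the vehicle arrays. In ectoderm 12 h after cadmium, 21 of 26 mesenchyme markers were above 0 (median 0.11) and 14 of 14 endothelial markers (median 0.16). So were 10 of 11 red blood cell markers (median 0.18), 11 of 13 endoderm, 6 of 6 mesothelium and 6 of 9 leukocyte markers. Of the ectoderm markers 12 of 23 were above 0, and of all genes 57.6%. In ectoderm 3 h after acetazolamide, 5 of 23 ectoderm markers were above 0 (median -0.23), and 0 of 11 red blood cell markers. The other lists had 11 of 26 mesenchyme, 2 of 14 endothelial, 0 of 13 endoderm, 1 of 6 mesothelium and 1 of 9 leukocyte markers above 0. Of all genes, 38.9% were above 0 there. In ectoderm 12 h after acetazolamide, 16 of 23 ectoderm markers were above 0 (median 0.11), where 49.6% of all genes were. That list's median ran from -0.15 to 0.25 on the treated arrays and from -0.11 to 0.11 on the vehicle arrays. The other lists there had 13 of 26 mesenchyme, 4 of 14 endothelial, 3 of 11 red blood cell, 3 of 13 endoderm, 2 of 6 mesothelium and 1 of 9 leukocyte markers above 0. The markers that passed the threshold were Tie1 (0.63), Eng (0.58) and Vwf (0.47) of endothelium and Alas2 (0.53) of red blood cells, all in 12 h cadmium mesoderm. With no levels kept, no marker can be said to be at 0, and the part of other cells in the values above was not tested.

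The mean 3′ to 5′ ratio of the Gapdh control probe sets was higher after acetazolamide than after oil in all 4 comparisons. It was higher by 0.45 and 0.59 at 3 h and by 0.41 and 0.42 at 12 h (ectoderm, then mesoderm). In 12 h mesoderm only treated array 2 was high, at 1.72, with arrays 1 and 3 at -0.19 and -0.0465. Vehicle arrays 1 and 2 stood at -0.46 and 0.69 there. For the actin control the mean was higher by 0.26, 0.52, 0.23 and 0.24 in the same order. In 3 h mesoderm the actin ratio ran from -0.025 to 1.55 on the treated arrays, and vehicle array 1 stood at 1.30. In the cadmium arm the Gapdh difference between means ran from -0.25 to 0.49. The part of RNA quality in the acetazolamide values of Cxadr, Epcam and Esrp1 was not tested.

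Genes with the most similar pattern were sought by correlation with the mean of the 10 genes over the 24 treated arrays. The nearest 10 outside the set were Slc9a3r1 (0.72), Pabpc4 (0.70), Ppp4c (0.68), Wnt6 (0.63), Wwc1 (0.62), Smarcb1 (0.62), Fez2 (0.62), Dlx3 (0.61), Wipi2 (0.61) and Exoc7 (0.60). Over the 8 vehicle pairs, which did not pick them, Wnt6 gave 0.86 and Slc9a3r1 0.67, while Pabpc4 and Wwc1 gave 0.082 and 0.024. Wnt6 and Dlx3 are also on the ectoderm marker list, and over the 12 mesoderm arrays they gave 0.86 and 0.73. Of the 10 genes themselves, each against the mean of the other 9, Krt8 was the closest at 0.49 and Epcam the farthest at -0.17.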

How the data were processed

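Expression was measured on 48 Affymetrix mouse arrays, 3 for each of 16 groups. The deposited values are linear ratios to the matching vehicle arrays, as the values show: vehicle arrays 1 and 2 sum to 2 for each probe set and vehicle array 3 is 1. The denominators of treated arrays were read from their numbering. How the authors computed signals before the ratio is not given in the sources used here. The values keep no level or background, so genes near background could not be set apart. The precision stated reflects the spread between arrays and does not cover this limit.

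Ratios were put on the log2 scale, probe sets naming one gene were averaged to 8252 genes (396 probe sets naming several genes and 1237 naming none were left out), and limma 3.58.1 in R 4.3.3 fitted all 48 arrays with a mean for each of 16 denominators, 8 agent effects and a precision weight for each comparison (24 residual degrees of freedom, empirical Bayes, Benjamini-Hochberg adjustment over all genes, threshold 0.05). The fit was tested on simulated data with independent noise. The simulation held none of the patterns that real arrays shared, so it does not cover them. A p-value measures the spread between RNA pools. The genes described, the lists and the tests were chosen with earlier results of these data known. By rule the text names all 10 genes, the largest difference of each other epithelial list in a comparison, listed genes that passed the threshold and the 10 genes nearest in pattern. Alternatives changed the weights, blocks, centring, probe sets, arrays and variance shrinkage one at a time. Promoters came from RefSeq (GRCm38.p6), with 5 of 10 genes matched.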

Additional observations from a re-analysis of the deposited data

Results flagged for a closer look

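Epcam 12 h after acetazolamide was picked out because its treated arrays lay wholly on opposite sides of the vehicle arrays in the tissues. In ectoderm it stood at 0.41, 0.36 and 0.75, all above the vehicle arrays (-0.18 and 0.16). In mesoderm it stood at -0.14, -0.10 and -0.12, narrowly below them (-0.060 and 0.057), a difference of -0.12 ± 0.21 that is smaller than its SE. Of all genes, 8.48% lay wholly above in that ectoderm comparison and 2.48% wholly below in the mesoderm one. The share of genes with both was not counted. The ectoderm minus mesoderm value was 0.63 (95% interval -0.040 to 1.31). The genes were chosen with this contrast known, so the difference was not tested here.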

How the results depend on the processing

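Of 80 differences of the 10 genes, 7 moved by more than the spread between arrays with the highest-variance probe set, 1 with arrays 1 and 2 only, 1 with arrays centred on their median and 24 of 480 with an array left out. The choice of probe set could change only Krt18, Krt19 and Dsp, which had 2 probe sets each, so all 7 are theirs. The median in 3 h cadmium ectoderm, 0.15, was 0.25 with arrays 1 and 2 only and 0.25 with the highest-variance probe set, and the vehicle spread in ectoderm, 0.27, was 0.33 with that probe set. Cxadr passed in 3 h acetazolamide ectoderm (limma adjusted p = 0.00737, 0.000601 to 0.728 over the alternatives, higher in 3 of 3 treated arrays, 0.72), but with only the arrays compared the count was 0 (adjusted p = 0.728), as it was without acetazolamide array 2 (0.0542). Leaving out each array in turn, the medians ran, for 3 h and 12 h cadmium, from 0.038 to 0.25 and -0.16 to 0.088 in ectoderm and from 0.17 to 0.26 and -0.012 to 0.16 in mesoderm. For acetazolamide they ran from -0.078 to 0.051 and 0.041 to 0.30 in ectoderm and from -0.074 to 0.041 and -0.11 to 0.13 in mesoderm. Ectoderm minus mesoderm medians ran from -0.13 to 0.074 and -0.24 to 0.018 (cadmium) and from -0.093 to 0.040 and 0.085 to 0.43 (acetazolamide), and the vehicle spread from 0.26 to 0.30 in ectoderm and 0.14 to 0.17 in mesoderm. The count that passed ran from 0 to 2 in 3 h cadmium ectoderm (Pkp3 and Krt8 without PBS array 2, limma adjusted p = 0.00261 and 0.0482), from 0 to 1 in 3 h acetazolamide ectoderm and from 0 to 1 in 12 h acetazolamide ectoderm (Esrp1 without oil array 2, 0.0271). Array 1 minus array 2 correlated between treated and vehicle arrays at -0.20 to 0.65 over all genes, over 0.1 in 3 of 8 comparisons. It reached 0.65 in 12 h cadmium mesoderm and 0.55 in 3 h acetazolamide mesoderm, so same-numbered arrays shared a pattern there. The main fit did not pair arrays 1 and 2 by number. With the replicate number as a block the count in 3 h acetazolamide ectoderm was 1 (Cxadr, limma adjusted p = 0.0428). Over all genes the count in 12 h cadmium mesoderm, 188, was 22 without precision weights and 459 with the replicate block, and in 12 h cadmium ectoderm, 2, it was 89 without weights. The causes were not tested.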
